A study of Mus musculus with 2 samples.

Results

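Collagens are secreted matrix proteins built from chains that wind around each other into a helix. The genes described here are 36 collagen chains of the mouse, chosen by name from 18194 genes that the array's probe sets identify without ambiguity. They were read in 2 cultures of mouse embryonic fibroblasts (MEFs), both immortalised by overexpressing TBX2, both labelled C57BL/6 and male, and both grown untreated in DMEM with serum. The first was Bmi1 null, labelled Bmi1 knockout MEF, and carried a knockout of the Polycomb protein Bmi1, which is a partner of the enzyme that ubiquitylates histone H2A. The other was Bmi1 wild-type. Each culture gave total RNA for 1 array (Affymetrix 430 2), so no difference below has a replicate check, no test could be made, and the genotype cannot be told apart from any other difference between the 2 lines. RNA came from whole cultures, in which fewer cells expressing a gene and less RNA per cell cannot be told apart.

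Fibrillar collagens (types I, II, III, V, XI and XXVII) assemble into the banded fibrils that carry tension in connective tissue, and types I, III and V are the usual fibrils of fibroblast matrix. Basement membrane collagens are led by type IV, which forms a sheet-like network under cells, with types XV and XVIII beside it. Fibril-associated collagens (types IX, XII, XIV, XVI and XIX) sit on the surface of fibrils. The remaining chains include the beaded filaments of type VI, the anchoring fibrils of type VII, the short-chain networks of types VIII and X, and chains that span the cell membrane.

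Values are MAS5 signals, the linear intensity that the Affymetrix software derives for a probe set, and the trimmed mean of each array was 500. A signal of 100 was taken as a floor, and a gene at or below it on both arrays was counted as not measured. Where a gene lay below the floor on 1 array, the ratio was computed against the floor and is a lower bound on its size. Each gene is represented by its brightest probe set, judged by mean log2 signal. Signals of different genes come from different probes, so levels of different genes were not ranked against each other. A signal summed over a list serves only to compare the 2 arrays, and its brightest probe sets weigh most in it.

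On these arrays 11766 of the 18194 genes were measured. Bmi1 had a signal of 2146 in null cells and 9933 in wild-type cells, 4.63-fold lower in null cells. The other Bmi1 probe set read 831 in null cells and 931 in wild-type cells. Whether either lies inside the deleted part of the gene was not tested. The Y-linked gene Eif2s3y read 23.3 in null cells, below the floor, and 1683 in wild-type cells, although both lines are labelled male. Uty and Kdm5d were also below the floor in null cells only, while Xist, which marks an inactive X chromosome, read 124 in null cells and 153 in wild-type cells. The fibroblast genes Vim (19233 in null cells, 19519 in wild-type cells) and Fn1 (12777 in null cells, 14137 in wild-type cells) differed little by their brightest probe sets. A further Fn1 probe set read 369 in null cells and 741 in wild-type cells, 2.01-fold lower in null cells. The mesenchymal receptor Pdgfra read 532 in null cells and 4952 in wild-type cells, and the surface marker Thy1 was at least 3.75-fold lower in null cells. The matrix proteoglycan gene Lum went the other way, at 729 in null cells and 68.0 in wild-type cells, at least 7.29-fold higher in null cells.

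A larger share of the collagen chains than of all genes was higher in Bmi1 null cells. Of the 36 chains, 24 were measured and 12 were not. In null cells 11 of the 24 (45.8%) exceeded wild-type cells by 2-fold or more, against 5.73% of all measured genes, and 1 (4.17%) lay 2-fold or more below them, against 5.16% of all measured genes. The higher chains were Col14a1, Col8a1, Col4a6, Col11a1, Col6a3, Col6a2, Col3a1, Col6a1, Col5a1, Col4a5 and Col1a1, and the lower chain was Col18a1. The median log2 ratio of null over wild-type was 0.91 for the measured chains, with bounds entered at the floor, and 0.0060 for all measured genes. A gene that passes the floor on 1 array only has to differ, and this concerned 3 chains, namely Col2a1, Col8a2 and Col9a1. For the 21 chains above the floor on both arrays the counts were 11 higher and 1 lower, with a median of 1.11, while 4.67% of all such genes passed 2-fold upward and 4.19% downward. Among genes with a signal of at least 2000 on the brighter array, 9 of 15 chains passed 2-fold upward and 0 downward, against 5.88% higher and 4.68% lower of all 2842 such genes. The chain just past the 2-fold line was Col1a1, at a log2 ratio of 1.11, and the next below it was Col2a1, at 0.92 as a bound.

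**Figure D1:**
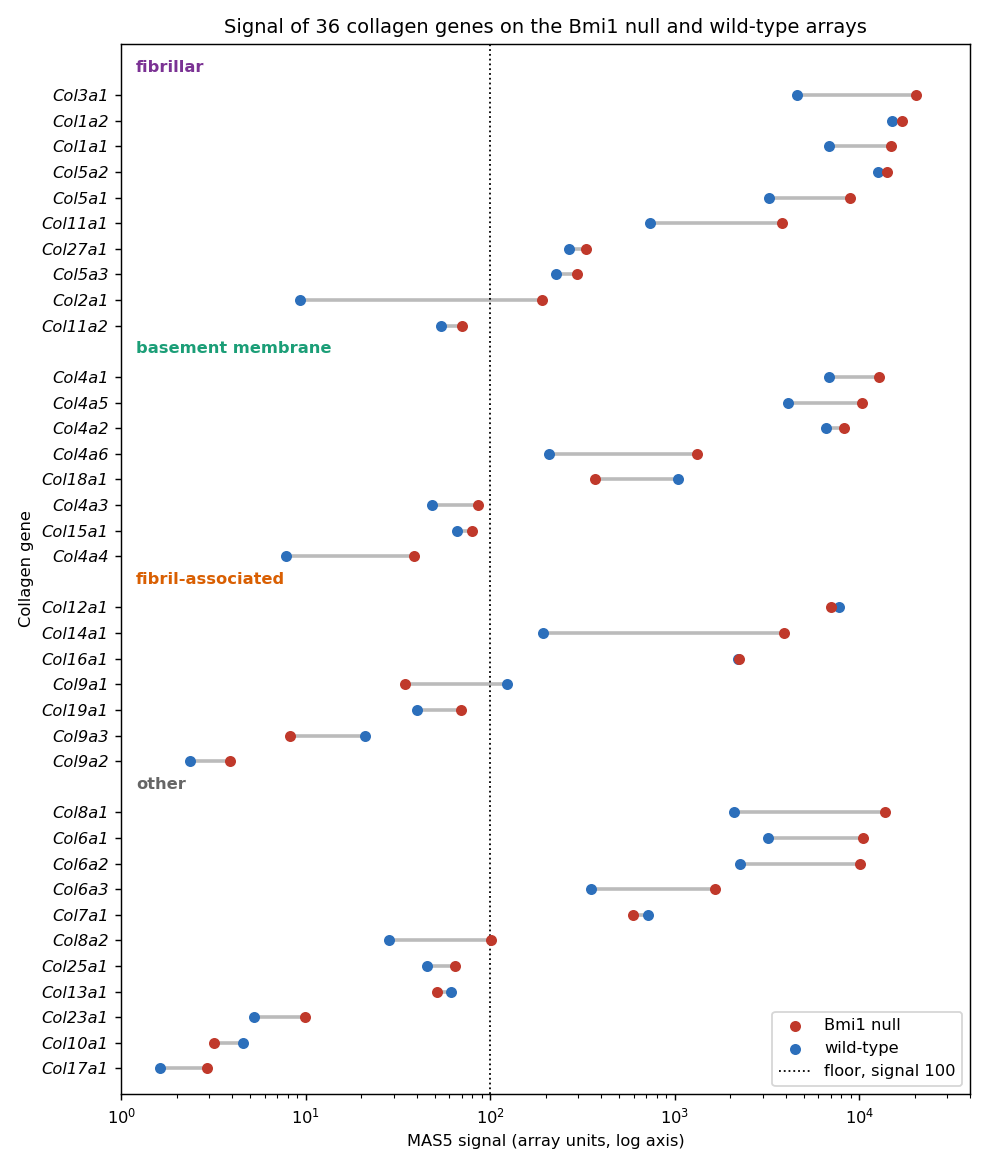
Signal of each of the 36 collagen chains on the 2 arrays (MAS5 units on a log axis), 1 point per array and gene, grouped by class, with the floor of 100 dotted. Chains of type VI, VIII and XIV lie far apart between Bmi1 null and wild-type cells, whereas Col1a2, Col5a2, Col12a1 and Col16a1 nearly coincide.

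Among the fibrillar chains, 9 of 10 were measured, at a median log2 ratio of 0.92. Of these, 4 passed 2-fold with more signal in null cells and 0 with less, against 5.73% and 5.16% of all measured genes. Col3a1, the only chain of type III collagen, which is abundant in skin and vessel walls, had a signal of 20209 in null cells and 4617 in wild-type cells, 4.38-fold higher in null cells. Its other probe set read 10159 in null cells and 448 in wild-type cells, a 22.7-fold difference, so both probe sets put Col3a1 higher in null cells but at very unequal sizes. Col11a1, a chain of the type XI collagen that nucleates cartilage fibrils, read 3794 in null cells and 729 in wild-type cells. This was 5.20-fold higher in null cells, and 4.35-fold by the other probe set. Col5a1, whose product starts the assembly of type I fibrils, read 8846 in null cells and 3237 in wild-type cells, 2.73-fold higher in null cells. Its other 2 probe sets gave 4.53-fold and 4.06-fold.

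Type I collagen, the main protein of tendon, skin and bone, is made of Col1a1 and Col1a2 chains. Col1a1 read 14841 in null cells and 6860 in wild-type cells, 2.16-fold higher in null cells, and the other probe set gave 3.65-fold. Col1a2 read 17029.7 in null cells and 15048 in wild-type cells, 1.13-fold higher in null cells. A further Col1a2 probe set of like brightness in null cells read 16952 there and 6616 in wild-type cells, 2.56-fold higher in null cells. A dim probe set of Col1a2 read 292 in null cells and was just below the floor in wild-type cells, at least 2.92-fold higher in null cells. Thus whether Col1a2 differed by 2-fold turned on the probe set, and the signals alone do not settle which reading holds.

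The other fibrillar chains stayed under 2-fold by their brightest probe sets. Col5a2, which joins Col5a1 in type V collagen, read 14056 in null cells and 12676 in wild-type cells, 1.11-fold higher in null cells, and 1.76-fold by its other probe set. Col5a3, a chain of restricted distribution, read 297 in null cells and 228 in wild-type cells. Col27a1, a fibrillar collagen known from cartilage, read 331 in null cells and 268 in wild-type cells, 1.23-fold higher in null cells, while its other probe set crossed the 2-fold line at 2.07-fold. These chains all lay slightly higher in null cells. Col2a1, the defining collagen of cartilage, was seen only in null cells, at 190 against 9.29 in wild-type cells, which is at least 1.90-fold. Col11a2 was not measured, at 70.6 in null cells and 54.1 in wild-type cells. Col11a1 was thus above the floor on both arrays, Col2a1 on the null array only and Col11a2 on neither. Of 9 other cartilage markers, 5 were below the floor in null cells and 7 in wild-type cells, their summed signal was 1069.9 in null cells and 1121 in wild-type cells. Matn1, Hapln1, Cnmd and Sox5 were below the floor on both arrays. Sox9, the central transcription factor of cartilage, was above it on both, at 476 in null cells and 731 in wild-type cells. The cartilage matrix genes Matn3, Comp and Acan read 155, 118 and 102 in null cells and did not reach the floor in wild-type cells. Sox6 went the other way, below the floor in null cells at 93.6 and just above it in wild-type cells at 107.

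The stretches of 250 bases before the starts of Col3a1 and Col1a2 are shown. These chains share a matrix but differed in ratio by their brightest probe sets, and were picked after their values were seen. Whether Col1a2 passed 2-fold turned on the probe set. Sequences are from RefSeq on GRCm38.p6, run 5′ to 3′ on the strand of the gene, and have in capitals every GC box (GGGCGG, or CCGCCC on the opposite strand) and every CCAAT box (CCAAT, or ATTGG on the opposite strand). Col3a1 lies on the plus strand at chr1:45311288-45311537 and Col1a2 on the plus strand at chr6:4505368-4505617.
Col3a1: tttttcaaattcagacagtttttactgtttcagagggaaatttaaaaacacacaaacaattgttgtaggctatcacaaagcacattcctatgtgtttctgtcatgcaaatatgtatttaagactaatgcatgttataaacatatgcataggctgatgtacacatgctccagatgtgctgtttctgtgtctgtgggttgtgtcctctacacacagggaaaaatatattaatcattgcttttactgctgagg
Col1a2: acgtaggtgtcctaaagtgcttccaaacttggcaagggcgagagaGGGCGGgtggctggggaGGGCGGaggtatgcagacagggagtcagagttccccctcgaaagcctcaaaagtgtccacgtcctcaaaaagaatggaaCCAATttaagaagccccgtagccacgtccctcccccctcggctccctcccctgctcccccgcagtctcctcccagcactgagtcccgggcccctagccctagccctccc
The Col3a1 window held neither motif and 0 CpG dinucleotides. The Col1a2 window held 2 GC boxes, 1 CCAAT box and 11 CpG dinucleotides. These are matches of letters only, and binding was not measured in these data.

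Of the basement membrane chains, 5 of 8 were measured, at a median log2 ratio of 0.90. Of these, 2 passed 2-fold with more signal in null cells and 1 with less, against 5.73% and 5.16% of all measured genes. The type IV chains occur in fixed combinations, and Col4a1 with Col4a2 forms the common network found in nearly all basement membranes. Col4a1 read 12768 in null cells and 6828 in wild-type cells, 1.87-fold higher in null cells, and 1.35-fold by its other probe set. Col4a2 read 8233 in null cells and 6566 in wild-type cells, 1.25-fold higher in null cells. Both chains of the common network therefore stayed under 2-fold. Col4a5 and Col4a6, which together form a network in smooth muscle and some epithelia, differed more. Col4a5 read 10302 in null cells and 4111 in wild-type cells, 2.51-fold higher in null cells, with 2.40-fold by its other probe set. Col4a6 read 1325 in null cells and 208 in wild-type cells, 6.37-fold higher in null cells, and its other probe set read 962 in null cells but was below the floor in wild-type cells, at least 9.62-fold. Col4a3 and Col4a4, the partners of Col4a5 in the kidney glomerulus, were not measured, at 85.3 and 38.6 in null cells and 48.1 and 7.85 in wild-type cells. Hence the Col4a5 signal came with Col4a6 and without detectable Col4a3 or Col4a4 in these cultures. Col4a5 and Col4a6 are X-linked, and the null line lacked signal of the Y-linked genes given above; the part of that difference in these ratios was not tested.

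Col18a1, the chain of a heparan sulphate-bearing collagen whose end fragment is endostatin, was the only chain at least 2-fold lower in null cells. It read 371 in null cells and 1046 in wild-type cells, 2.82-fold lower in null cells, and its other probe set read 242 in null cells and 1359 in wild-type cells, 5.61-fold lower in null cells. The related Col15a1 was not measured, at 79.3 in null cells and 66.1 in wild-type cells.

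The Col4a5 and Col4a6 genes stand head to head on the X chromosome with 1343 bases between their starts. Col4a1 and Col4a2, on another chromosome, also lie on opposite strands. Their annotated starts are 21 bases apart, each just inside the other gene, so these genes overlap at their starts. The windows before the starts of Col4a5, Col4a6 and Col18a1 are shown because these are the basement membrane chains that differed by 2-fold, with capitals as above and sequences from RefSeq on GRCm38.p6. Col4a5 is on the plus strand at chrX:141475169-141475418 and Col4a6 on the minus strand at chrX:141474077-141474326. Col18a1 has a pair of annotated starts on the minus strand, at chr10:77113706-77113955 (start A) and chr10:77166531-77166780 (start B).
Col4a5: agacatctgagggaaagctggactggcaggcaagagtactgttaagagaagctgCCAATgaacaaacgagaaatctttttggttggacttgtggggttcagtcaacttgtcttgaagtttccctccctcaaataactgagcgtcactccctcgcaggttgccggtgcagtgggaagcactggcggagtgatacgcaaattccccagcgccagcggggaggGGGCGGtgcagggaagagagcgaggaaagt
Col4a6: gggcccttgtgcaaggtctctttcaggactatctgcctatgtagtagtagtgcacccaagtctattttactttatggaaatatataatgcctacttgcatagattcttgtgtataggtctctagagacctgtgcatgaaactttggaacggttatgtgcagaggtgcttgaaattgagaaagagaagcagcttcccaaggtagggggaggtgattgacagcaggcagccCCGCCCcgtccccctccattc
Col18a1 start A: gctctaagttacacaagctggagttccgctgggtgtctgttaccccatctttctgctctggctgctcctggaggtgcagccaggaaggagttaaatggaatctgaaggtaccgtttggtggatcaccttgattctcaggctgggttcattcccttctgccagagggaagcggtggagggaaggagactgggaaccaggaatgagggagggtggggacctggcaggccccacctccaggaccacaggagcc
Col18a1 start B: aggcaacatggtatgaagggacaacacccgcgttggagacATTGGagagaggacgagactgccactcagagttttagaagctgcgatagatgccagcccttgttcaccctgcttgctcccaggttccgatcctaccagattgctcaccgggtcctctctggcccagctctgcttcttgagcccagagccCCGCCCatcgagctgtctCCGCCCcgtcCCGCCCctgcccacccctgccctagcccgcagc
The Col4a5 window held 1 GC box and 1 CCAAT box, the Col4a6 window 1 GC box, the window at Col18a1 start A neither motif, and that at start B 3 GC boxes and 1 CCAAT box. No window was printed for Col14a1.

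Promoter windows were found for 29 of the 36 chains, 32 windows in all. A GC box stood in 19 of the 32 (59.4%), against 32.7% of all 32851 windows of the same length, and a CCAAT box in 12 of the 32 (37.5%), against 33.8% of all windows. The chains past 2-fold upward had 10 windows from 9 genes, 7 with a GC box and 2 with a CCAAT box. Col1a1 and Col14a1 had no window, and Col6a2 had a pair of overlapping windows, each with a GC box. Measured chains under 2-fold also had 10 windows from 9 genes, 7 with a GC box and 7 with a CCAAT box. These counts describe letters in short windows, were not tested, and draw on genes grouped by the same arrays.

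The fibril-associated chains were split. Col14a1, the chain of type XIV collagen, which binds fibrils and limits their growth, had the largest ratio of the 24 measured chains by the brightest probe set. Its signal was 3925 in null cells and 193 in wild-type cells, 20.4-fold higher in null cells, rank 22 of 11766 genes by ratio of the brightest probe set. Another Col14a1 probe set read 879 in null cells and 160 in wild-type cells, 5.51-fold higher in null cells, and the third was below the floor on both arrays. Its place at the top turned with the probe set. By the mean over measured probe sets the log2 ratio was 3.40 for Col14a1 and 3.72 for Col8a1, and without the suffixed probe sets (those marked as shared between genes or transcripts) it was 2.46 for Col14a1, 2.72 for Col8a1 and 4.50 for Col3a1. In contrast, Col12a1, the closest relative of type XIV and likewise a chain of tendon and skin, read 7048 in null cells and 7764 in wild-type cells, 1.10-fold lower in null cells, and 1.50-fold lower by its other measured probe set. Col16a1, found in fine fibrils of skin, read 2214 in null cells and 2196 in wild-type cells. Col9a1, a cartilage chain, was the only member seen in wild-type cells alone, at 34.6 in null cells and 123 in wild-type cells, at least 1.23-fold lower in null cells. Its other probe set was not measured. Col9a2, Col9a3 and Col19a1 were not measured, with signals of 3.86 to 69.7 in null cells and 2.36 to 40.0 in wild-type cells. The median log2 ratio of the 4 measured chains was -0.064, and Col14a1 was the only chain of its class past 2-fold. Among all measured genes 5.73% passed 2-fold upward and 5.16% downward.

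Type VI collagen, a microfibril that links cells to the matrix of muscle, skin and tendon, needs all of its main chains to assemble. All 3 chains on the list passed 2-fold with more signal in null cells, against 5.73% of all measured genes. Col6a1 read 10409 in null cells and 3208 in wild-type cells, 3.24-fold higher in null cells. Col6a2 read 10075 in null cells and 2241 in wild-type cells, 4.50-fold, or 5.22-fold by its other probe set. Col6a3 read 1642 in null cells and 349 in wild-type cells, 4.70-fold. Col6a1 and Col6a2 are neighbours, with 0 protein-coding genes between them, while Col6a3 lies on another chromosome.

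Col8a1, a short-chain collagen of vessel walls and of the membrane at the back of the cornea, read 13696 in null cells and 2084 in wild-type cells, 6.57-fold higher in null cells. Its other 2 probe sets gave larger ratios. They read 11124 and 2635 in null cells and 629 and 134 in wild-type cells, which is 17.7-fold and 19.7-fold higher in null cells. Its partner Col8a2 was just above the floor in null cells, at 101, and below it in wild-type cells, at 28.4. Col7a1, the anchoring fibril of skin, read 594 in null cells and 715 in wild-type cells, 1.20-fold lower in null cells. Not measured were Col10a1, the collagen of enlarged cartilage cells, and the membrane-spanning chains Col13a1, Col17a1, Col23a1 and Col25a1, with signals of 2.91 to 64.0 in null cells and 1.63 to 61.5 in wild-type cells. Of the 6 measured chains of this class, 4 passed 2-fold with more signal in null cells and 0 with less. Among all measured genes these shares were 5.73% and 5.16%. The median log2 ratio of the 6 chains was 1.93.

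**Figure D2:**
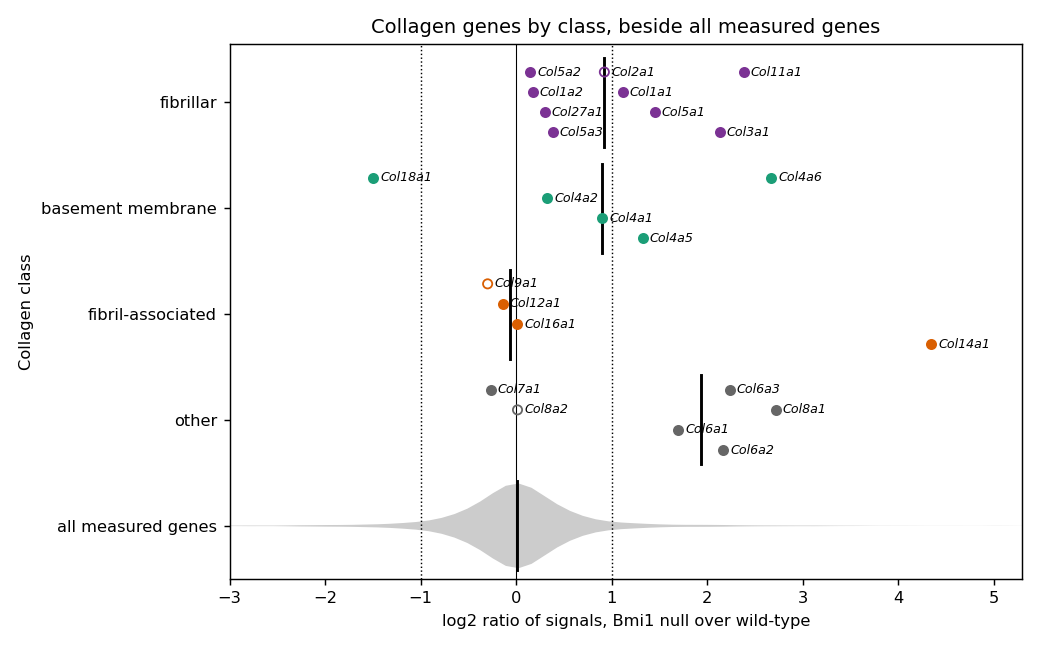
Log2 ratio of signals, Bmi1 null over wild-type, for the 24 measured chains grouped by class, with dotted lines at 2-fold, open circles for bounds, a black bar for each median and, at the bottom, the distribution of all measured genes. Ratios of the chains run from -1.50 for Col18a1 to 4.35 for Col14a1, and 20 of 24 lie above 0.

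The precision of a ratio can be judged in part from spiked control RNAs and from how far probe sets of the same gene differ. The 18 spike probe sets had ratios of null over wild-type between 0.890 and 1.06, which covers hybridisation and array. Over 4591 genes with a pair of probe sets, both measured in both lines, the SD of a single log2 ratio estimated from those pairs was 0.29. It was 0.35 for dim genes with a mean signal of 100 to 500 and 0.21 for the 137 genes of at least 10000. Neither measure covers culture or RNA extraction. Of the collagen chains, 14 had such a pair and all 14 pairs agreed in sign. Both probe sets were at least 2-fold apart between null and wild-type cells for 9 of them, and 2, Col1a2 and Col27a1, were past 2-fold by 1 probe set only. The sizes agreed less well than the signs. The brighter probe set minus the next gave a difference in log2 ratio of -2.37 for Col3a1 and of 1.89 for Col14a1. In 10 of the 14 chains the dimmer probe set lay farther from 0. Among all 9 genes with a brighter probe set of at least 10000 and a 2-fold difference by either probe set, collagen chains included, the dimmer was farther in all 9, against 277 of 518 genes over the whole range of signal. The highest signal on any probe set was 22149 in null cells and 23377 in wild-type cells. Whether signals near the top of the scale are compressed was not tested.

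**Figure D3:**
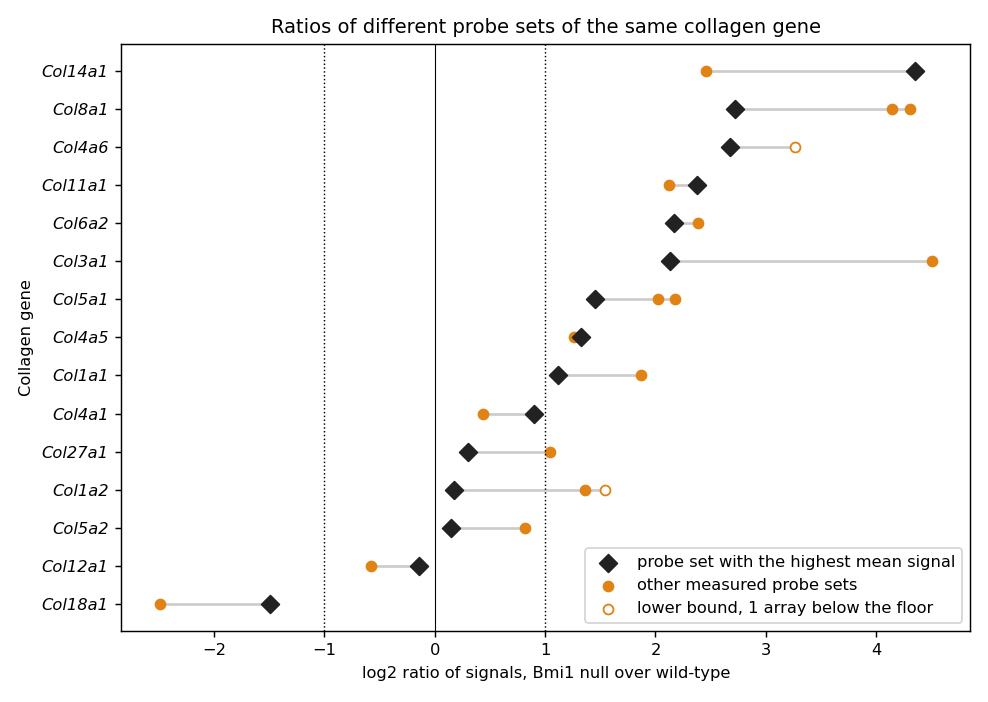
Log2 ratio, Bmi1 null over wild-type, by each measured probe set of the collagen chains that have more than 1, with diamonds for the brightest and circles for the others. Every chain keeps its sign, while Col3a1, Col8a1, Col1a2 and Col14a1 spread by more than 1 log2 unit.

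Collagen chains are modified, folded, trimmed and crosslinked by a set of dedicated proteins, and of 34 such genes listed, 30 had a probe set and 25 were measured. In all, 9 (36%) passed 2-fold with more signal in null cells, against 5.73% of all measured genes, and 0 with less, against 5.16% of them, at a median log2 ratio of 0.45. Of the enzymes that hydroxylate proline, P4ha3 read 1081 in null cells and 214 in wild-type cells, 5.05-fold higher in null cells. The widely used P4ha1 read 2974 in null cells and 1692 in wild-type cells, 1.76-fold higher. Of the prolyl 3-hydroxylase family, P3h1 was 2.14-fold, P3h3 2.32-fold and P3h4 2.40-fold higher in null cells, whereas P3h2 was 1.59-fold lower. Lysine hydroxylases prepare the sites of crosslinks. Plod2, which acts on the ends of the chains, read 4095 in null cells and 1362 in wild-type cells, 3.01-fold higher, while Plod1 read 980 in null cells and 1234 in wild-type cells, 1.26-fold lower in null cells.

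Folding and crosslinking genes differed among themselves as well. Serpinh1, the collagen chaperone HSP47, read 14449.7 in null cells and 12869 in wild-type cells, 1.12-fold higher in null cells, and 1.43-fold by its other probe set. The proline isomerase Fkbp14 read 1438 in null cells and 292 in wild-type cells, 4.92-fold higher in null cells. Creb3l1, a transcription factor of collagen-secreting cells, read 1935 in null cells and 503 in wild-type cells, 3.85-fold higher in null cells. Serpinh1 therefore stayed under 2-fold by both probe sets, while Fkbp14 and Creb3l1 passed 2-fold. Bmp1, the protease that trims the end of fibrillar procollagens, read 1043 in null cells and 1148 in wild-type cells, 1.10-fold lower in null cells, whereas its relative Tll1 read 943 in null cells and 326 in wild-type cells, 2.89-fold higher. Lox, which crosslinks collagen through lysine, read 11698 in null cells and 13496 in wild-type cells, 1.15-fold lower in null cells. Bmp1 and Lox were thus close to equal in both lines by these probe sets. Tgm2, a transglutaminase that crosslinks many matrix proteins, read 6880 in null cells and 903 in wild-type cells, 7.62-fold higher. This was the largest ratio of the 25 by brightest probe sets, from a probe set marked as open to cross-hybridisation. Its other measured probe sets gave 3.09-fold to 7.35-fold. By its dimmest measured probe set Tgm2 lay below P4ha3 and Fkbp14.

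**Figure D4:**
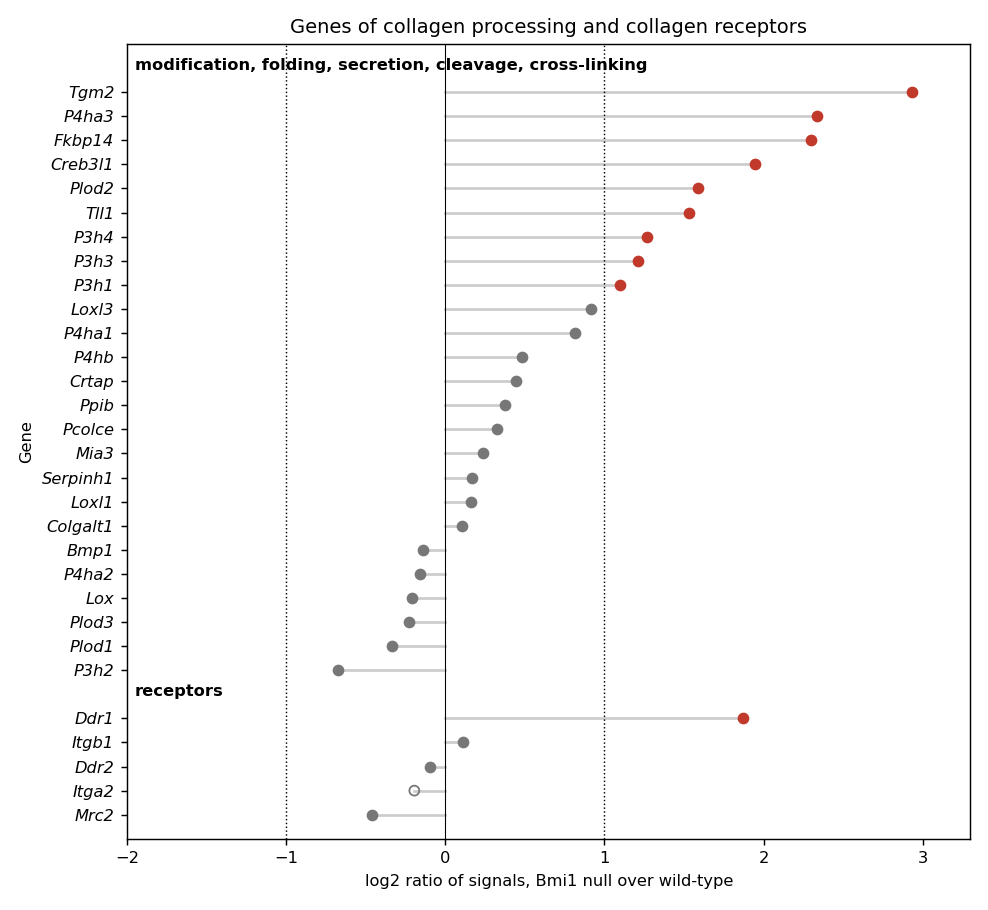
Log2 ratio of signals, Bmi1 null over wild-type, for the measured genes of collagen processing and the measured collagen receptors, with dotted lines at 2-fold, red for genes past them and an open circle for a bound. Tgm2, P4ha3 and Fkbp14 lie farthest to the right, and none of the genes lies past the 2-fold line on the left.

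Cells bind collagen through integrins and discoidin domain receptors. Of 10 receptor genes listed 5 were measured, 1 past 2-fold upward in null cells and 0 downward, where 5.73% and 5.16% of all measured genes passed, with a median log2 ratio of -0.095. Ddr1, the discoidin receptor best known from epithelia, read 3396 in null cells and 928 in wild-type cells, 3.66-fold higher in null cells, although its other measured probe sets ranged down to 1.08-fold. Ddr2, the receptor typical of fibroblasts, read 3746 in null cells and 4002 in wild-type cells. Of 8 further collagen chains outside the group, 6 had a probe set and only Col22a1 was measured, at 112 in null cells and 81.6 in wild-type cells.

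Markers of other cell types were read on the same arrays. All 6 smooth muscle and myofibroblast markers were measured, and 3 of them (Cnn1, Myh11 and Actg2) passed 2-fold upward in null cells, against 5.73% of all measured genes. Acta2 was 1.45-fold, Tagln 1.57-fold and Des 1.25-fold higher in null cells by their brightest probe sets. Another Acta2 probe set read 793 in null cells and 63.4 in wild-type cells, at least 7.93-fold higher in null cells. The third Acta2 probe set gave at least 1.23-fold. The summed signal of the 6 markers was 36084.5 in null cells and 21536.5 in wild-type cells. Cnn1 and Myh11 read 2291 and 449 in null cells and fell short of the floor in wild-type cells, and none of the 6 was below the floor in null cells. Among 10 fibroblast markers 1 passed 2-fold upward in null cells and 2 downward, against 5.73% and 5.16% of all measured genes. The summed signal of the fibroblast markers was 68866 in null cells and 79629 in wild-type cells. Of 6 epithelial markers 2 were measured, 1 of them Epcam at 834 in null cells and 149 in wild-type cells by a probe set marked as open to cross-hybridisation. A further Epcam probe set did not reach the floor, at 11.5 in null cells and 5.82 in wild-type cells, and the keratins Krt8, Krt18 and Krt14 were below the floor on both arrays. The summed epithelial signal was 1232 in null cells and 448 in wild-type cells, most of it in null cells from that Epcam probe set. Of 7 bone markers 4 had a probe set and 1 was measured, and of 5 endothelial markers 3 were measured, 1 of them, Cdh5, at least 2.08-fold lower in null cells. The part of such cell states in the collagen ratios was not tested. The count of collagen chains at least 2-fold higher lay between 11 and 14 under every other setting tried, and the median log2 ratio between 0.28 and 1.22.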

How the data were processed

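Total RNA of 1 Bmi1 null and 1 wild-type culture was labelled with biotin and hybridised to 1 array each. The authors deposited linear intensity values made with MAS5, per the labels, and the trimmed mean (2% off each end) was 500 on both arrays, so no scaling was added. Depth has no meaning for arrays, and their number limits the precision. Probe sets were named through the platform annotation, in which 34958 of 45101 had 1 gene symbol, 932 several and 9211 none. Those with several or none were left out. Of the 34958, 34754 matched a RefSeq gene (GRCm38.p6).

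Log2 ratios of null over wild-type were taken with a floor of 0.2 times the trimmed mean. All 36 chains, the measured chains of each class, the processing and receptor genes past 2-fold with a signal of at least 500, and Serpinh1, P4ha1, Plod1, Lox, Bmp1 and Ddr2 were named. Members and lists were chosen with earlier results of these data known. With 1 array per group no test was made. Counting and ratio steps were tested on simulated data. Alternatives changed the floor, pseudocount, probe set choice and scaling. Python 3.11.15, numpy 2.4.6, pandas 2.3.3 and matplotlib 3.10.9 were used.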

Additional observations from a re-analysis of the deposited data

Results flagged for a closer look

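Col25a1, a membrane-spanning collagen, was counted as not measured by its brighter probe set, but a further probe set outside the comparisons gave a signal of 142 in null cells and 17.7 in wild-type cells, at least 1.42-fold higher in null cells. With 1 array per group this has no replicate check, and its cause was not tested.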

How the results depend on the processing

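No collagen chain or processing gene past 2-fold changed sign under the alternatives, nor did Ddr1 or Bmi1. The cell type markers and the Y-linked genes were not run singly under them. Over the genes that were, 409 of 456 single-gene values moved by less than the probe set spread of 0.29. Many of these values could not move, because a changed floor leaves genes well above it as they were. Likewise, a changed choice of probe set cannot move a gene that has no further probe set. All 11 higher chains were kept under each alternative except leaving out probe sets shared between genes or transcripts (suffixes s, x and a), which kept 10 and counted 11. The share of all genes at least 2-fold higher ranged from 3.07% with the pseudocount to 12.9% with no floor. With the floor lowered to 0.1 of the trimmed mean, 2 of the 30 chains with a ratio were at least 2-fold lower. With no floor 3 of 36 chains and 1 processing gene were. The share of all genes at least 2-fold lower was not counted under these settings. The median log2 ratio of the chains was 0.28 with the pseudocount and 1.22 without the suffixed probe sets. For fibrillar chains it was 1.24 without them and 1.54 with the dimmest measured probe set, an alternative chosen after seeing the data. For basement membrane chains it was 0.34 with the pseudocount and 0.44 with the dimmest probe set. For fibril-associated chains it was 1.16 without the suffixed probe sets, which left a ratio only for Col12a1 (-0.14) and Col14a1 (2.46). For the other chains it was 1.36 with the lower floor, 0.91 with no floor and 0.18 with the pseudocount. With the pseudocount or no floor all 36 chains have a ratio in place of 24, so these medians rest on more chains, and Col1a1 was at 1.10 with the pseudocount. The cause of the shifts was not tested. No paired analysis was possible because each group has 1 array.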
